A study of Bos taurus with 9 samples.

Results

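The loci described here are bovine miRNAs of the miR-23a and miR-23b clusters, measured in extracellular vesicles (EVs) of follicular fluid. They were chosen as every deposited locus that the study names bta-miR-23a, 23b, 24, 27a or 27b, with any arm, which gave 5 of the 249 loci of known and homologous miRNA and of 101889 deposited loci in all. EVs are membrane-bound particles that cells release, and follicular fluid is the fluid that surrounds the oocyte in an antral follicle. Fluid was drawn from bovine abattoir ovaries and pooled by follicle diameter, small (3 to 5 mm), medium (6 to 9 mm) or large (over 9 mm), and small RNA was sequenced from the EVs of 3 pools per size. No treatment is given for any pool, and the breed and age of the animals are not given in the sources used here. A pool mixes many follicles, healthy and atretic, so that no value belongs to 1 follicle. Each library is called here by its size and the number in its label, which are Small 1, 2 and 4, Medium 5, 6 and 8, and Large 10, 11 and 12.

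MicroRNAs are short RNAs that are cut from a hairpin, loaded on an Argonaute protein, and pair through their 5′ seed with messenger RNAs, which are then repressed. The miR-23a and miR-23b clusters are paralogs, and each one encodes a miR-23, a miR-27 and a miR-24 on 1 primary transcript. Members of a pair carry the same seed, miR-24 is the same mature RNA from both clusters, and miR-23a and 23b, or miR-27a and 27b, differ only near the 3′ end. The clusters are known for roles in endothelial cells and vessel growth, and miR-27 is known to repress PPARG, the nuclear receptor that drives adipocyte formation.

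On chromosome 7 (build UMD3.1, minus strand), bta-miR-23a was counted on 12981982–12981998, bta-miR-27a-3p on 12981796–12981815 and bta-miR-24-3p on 12981643–12981664. On chromosome 8 (plus strand), bta-miR-23b-3p was counted on 83009652–83009674 and bta-miR-27b on 83009883–83009903. The chromosome 8 cluster held a pair of further loci that the study named by homology to another species, eca-miR-24 (83010420–83010441), its miR-24, and chi-miR-27b-5p (83009841–83009862), the opposite arm of the miR-27b hairpin. These are shown beside the members as partner loci and are not counted among the 5. The clusters spanned 356 and 790 bases, and no other deposited locus lay within 1000 bases of either. In RefSeq's annotation of a later assembly (ARS-UCD2.0, used for names only), MIR23B, MIR27B and MIR24-1 lie within the span of AOPEP, the gene of an aminopeptidase. MIR23A, MIR27A and MIR24-2 lie within that of LOC132345691. Whether they are intronic there was not analysed here.

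The libraries held from 8941598 to 14664460 counts, of which 146617 to 3394554 were on known and homologous miRNA. That set took 21.4% ± 6.59, 6.28% ± 4.27 and 2.89% ± 2.39 of all counts in small, medium and large pools (SD, n = 3 each, as for every mean below). Single libraries stood apart from their size. The share was 14.1% in Small 2 against 23.1% and 26.9% in Small 1 and 4, 11.2% in Medium 8 against 3.88% and 3.75% in Medium 5 and 6, and 5.65% in Large 12 against 1.58% and 1.43% in Large 10 and 11. Levels are therefore given as normalized counts, which are counts per 1000000 of the set after TMM, a scaling by the trimmed mean of locus-to-locus ratios, and they are relative to the other miRNAs of the library. A lower level cannot tell fewer vesicles that carry an miRNA from fewer copies in each vesicle, nor fewer cells of a type from less RNA per cell.

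The miR-27b locus was the bulk of the 5 members. It had the second highest summed count of all known and homologous miRNA, 794347, or 7.60% of the set, but 70.7% of the set's counts came from small pools. By library it ranked 2, 3 and 2 in Small 1, 2 and 4, 2, 6 and 4 in Medium 5, 6 and 8, and 2, 3 and 7 in Large 10, 11 and 12. Its normalized count was 106433 in Small 1, 52779 in Small 2 and 84509 in Small 4. It was 53355, 50768 and 47984 in Medium 5, 6 and 8, and 45162, 50073 and 53981 in Large 10, 11 and 12. Small 1 and Small 4 thus stood above the 6 libraries of medium and large follicles, and Small 2 lay among them, so that the groups overlapped. The mean was 81240 ± 26976, 50702 ± 2686 and 49738 ± 4419 in small, medium and large pools.

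The other 4 members were far less abundant, and their summed counts ranked from 61 to 135 of 249. By library, miR-23b ranked from 37 to 64, miR-27a from 76 to 129 and miR-24 from 119 to 171. For miR-23a the rank was from 47 to 69 in small and medium pools, and 122, 110 and 71 in Large 10, 11 and 12. The order of the summed counts was miR-23b (29350), miR-23a (23278), miR-27a (10533) and miR-24 (3356). The partner loci had 3403 counts for the chromosome 8 miR-24 and 502 for miR-27b-5p. Counts were not divided by length, and since the loci were 17 to 23 bases long, dividing by it would change a ratio between them by at most 1.35-fold. Among the paralog pairs this changes an order for miR-23. By count, miR-23b was above miR-23a in 9 of 9 libraries, but per base of locus in 5 of 9. By group mean, miR-24 was the lowest member in each size, and the normalized counts of miR-23a and miR-23b overlapped in small and medium follicles.

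**Figure D1:**
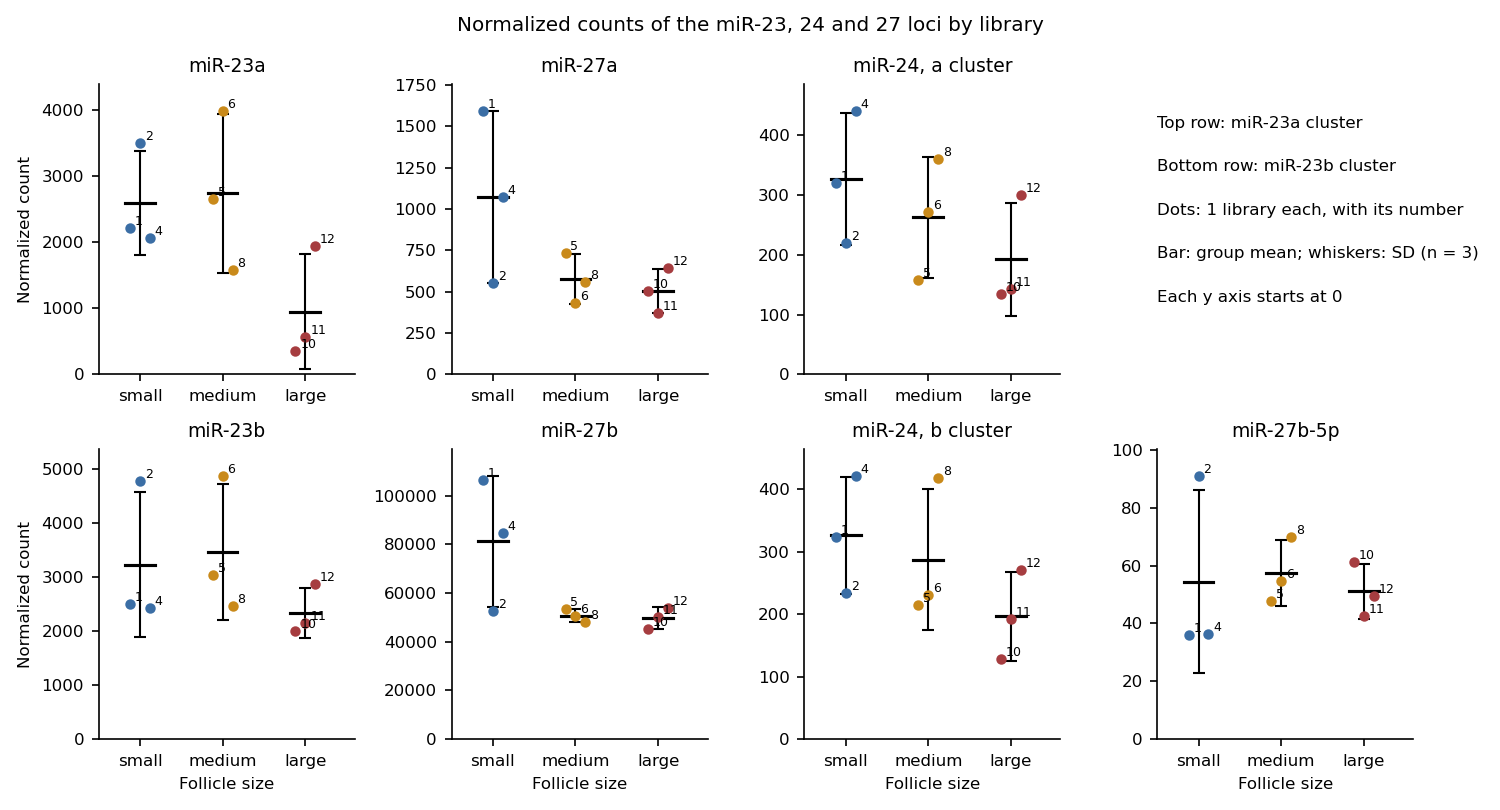
Normalized counts (vertical axes, each from 0) of the 5 members and 2 partner loci by follicle size, with 1 dot per library, the group mean as a bar and the SD as whiskers (n = 3). For miR-27b, Small 1 (106433) and Small 4 (84509) lie above the other 7 libraries, and for miR-23a, Large 10 (346) and Large 11 (561) lie below the others.

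The 5 members together took 8.57% ± 2.57, 6.10% ± 0.86 and 5.28% ± 0.28 of the set's counts in small, medium and large pools. Of these counts, miR-27b alone had 91.0% ± 4.86, 87.9% ± 3.37 and 92.7% ± 2.03. The share of the chromosome 7 members was 0.384% ± 0.022, 0.377% ± 0.115 and 0.155% ± 0.080 in small, medium and large pools. It ran from 0.359% to 0.399% over the small pools, 0.249% to 0.470% over the medium ones and 0.103% to 0.246% over the large ones. The large range overlapped neither of the others, but its upper end (0.246%) was just below the lowest medium share (0.249%). These shares were not scaled by TMM. On normalized counts, miR-23a, miR-27a and miR-24 of this cluster each overlapped between large and medium pools. Among single loci of the set, 53% did not overlap on normalized counts between large and small pools, and 36.1% between large and medium pools. The share of the chromosome 8 members was 8.18% ± 2.58, 5.72% ± 0.79 and 5.12% ± 0.32. It ran from 5.37% to 10.4%, 5.02% to 6.57% and 4.87% to 5.49% in small, medium and large pools, so that these ranges overlapped. These sums are given as a description, without a test.

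From small to large follicles, 0 of the 5 members passed an FDR of 0.05 in edgeR's quasi-likelihood test, where 42.2% of the 249 loci did. FDR is the p-value adjusted over the whole set. All 5 members had lower fitted levels in large follicles, and the log2 fold changes ran from −1.43 to −0.47, beside a median of −0.18 over the set. Unadjusted p-values were under 0.05 for 2 of the 5, miR-27a and miR-23a, and for 125 of the 249 loci. Both of these passed the threshold with the edgeR exact test, which called 116 of the 249 loci, and with DESeq2, which called 125. Both were also under an FDR of 0.1 in the quasi-likelihood test, as 125 of the 249 were.

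The locus of miR-23a, the leading miRNA of its cluster, had the largest difference of the 5 with TMM within the set and all 9 libraries, though miR-27a had a larger one on the 3 scales that use loci outside the set, and without Small 2 or Large 10. Its normalized count was 2218, 3499 and 2056 in Small 1, 2 and 4. It was 2646, 3982 and 1583 in Medium 5, 6 and 8, and 346, 561 and 1938 in Large 10, 11 and 12. The low values were those of Large 10 and Large 11, from 62 and 79 counts, and these are also the libraries with the fewest counts in the set (154101 and 146617). The part of that depth in the result was not tested. Large 12 lay within the range of the medium pools and just below the lowest small pool (2056), so that the large and small groups did not overlap. It was the only member without overlap in that comparison, 1 of 5, where 53% of the set did not overlap and 29.3% were lower without overlap. The normalized counts of 0 of 5 members were without overlap from small to medium follicles, where 28.5% of the set were, and of 0 of 5 from medium to large follicles, where 36.1% were.

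The log2 fold change of miR-23a was −1.43 ± 0.58 from small to large follicles (SE, edgeR quasi-likelihood FDR 0.0641). It was −1.51 ± 0.58 from medium to large follicles (quasi-likelihood FDR 0.0931) and 0.08 ± 0.57 from small to medium follicles (quasi-likelihood FDR 0.953). Without Large 12, the difference from small follicles was −2.52 (FDR 0.00242) and that from medium follicles −2.60 (FDR 0.0136) in the same edgeR test, both past the threshold. Without Large 10 the difference from small follicles was −1.04 (FDR 0.158), without Large 11 it was −1.17 (FDR 0.191) and without Small 2 it was −1.16 (FDR 0.173) in the edgeR test. From small to large follicles, the exact test of edgeR gave an FDR of 0.0372 and DESeq2 an adjusted p of 0.0264. With the counts of miR-23a and miR-23b summed, since their reads may not all be told apart, the change in edgeR was −0.83 (FDR 0.130) from small to large and −0.91 (FDR 0.150) from medium to large follicles.

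For miR-23b, its paralog on chromosome 8, the normalized count was 2489, 4777 and 2418 in Small 1, 2 and 4, and 3040, 4871 and 2466 in Medium 5, 6 and 8. It was 1991, 2146 and 2865 in Large 10, 11 and 12. The highest libraries were Small 2 and Medium 6, as for miR-23a, and the 3 sizes overlapped. The log2 fold change from small to large follicles was −0.47 ± 0.38, with a 95% interval from −1.30 to 0.37 (edgeR quasi-likelihood FDR 0.344). It was 0.10 ± 0.38 for medium over small and −0.57 ± 0.38 for large over medium follicles, with FDRs of 0.895 and 0.337 in the same edgeR fit. Without Small 2 the change from small to large follicles was −0.07 (edgeR FDR 0.889), and without Medium 6 that from medium to large follicles was −0.24 (FDR 0.763).

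For miR-27a, the PPARG-repressing miRNA of the chromosome 7 cluster, the normalized count was 1593, 552 and 1072 in Small 1, 2 and 4. It was 733, 433 and 560 in Medium 5, 6 and 8, and 502, 369 and 640 in Large 10, 11 and 12. As with miR-27b, Small 1 and Small 4 were above all other libraries and Small 2 was among the medium and large pools. The log2 fold change was −1.08 ± 0.42 from small to large follicles (edgeR quasi-likelihood FDR 0.0549), −0.90 ± 0.41 for medium over small (FDR 0.282) and −0.18 ± 0.42 for large over medium follicles (FDR 0.823). The large versus small difference passed without Small 2 (−1.40, FDR 0.0214) and without Large 12 (−1.30, FDR 0.0415) in the same edgeR test. Without Small 1 it was −0.68 (FDR 0.258), and the medium over small value was −0.50 (FDR 0.805). The edgeR exact test gave an FDR of 0.0437 and DESeq2 an adjusted p of 0.0483. Summed with miR-27b, whose counts make up most of the sum, the value was −0.71 (edgeR FDR 0.102).

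For miR-27b, the log2 fold change was −0.71 ± 0.33 from small to large follicles (edgeR quasi-likelihood FDR 0.102) and −0.68 ± 0.33 from small to medium follicles (FDR 0.302). Large and medium follicles differed by −0.03 ± 0.33, with a 95% interval from −0.74 to 0.68 (edgeR quasi-likelihood FDR 0.987). Leaving out Small 2 brought the large versus small difference past the threshold (−0.94, edgeR FDR 0.0341), and leaving out Small 1 gave −0.46 (FDR 0.354), with −0.44 (FDR 0.805) for medium over small. The opposite arm, miR-27b-5p, had from 6 to 117 counts per library, with a log2 fold change of −0.07 ± 0.51 from small to large follicles (edgeR quasi-likelihood FDR 0.932) and an interval from −1.19 to 1.04. Without Small 2, its value was 0.50 (FDR 0.418). This locus entered the set through the small pools alone, with a mean count of 108 there, 44.3 in medium and 15 in large pools, where the study asked for a mean of 100 in any size.

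For miR-24, which is known to repress cell cycle genes, the chromosome 7 locus had 320, 220 and 441 normalized counts in Small 1, 2 and 4. It had 158, 271 and 360 in Medium 5, 6 and 8, and 134, 142 and 301 in Large 10, 11 and 12, and the 3 sizes overlapped. Its log2 fold change from small to large follicles was −0.74 ± 0.45 (edgeR quasi-likelihood FDR 0.200), and that of the chromosome 8 locus was −0.71 ± 0.42 (FDR 0.184). Without Small 4 they were −0.35 and −0.37 (edgeR FDR 0.601 and 0.536), and without Large 12 the chromosome 7 locus had −1.25 (FDR 0.0515). Over the 9 libraries, 3356 counts were on chromosome 7 and 3403 on chromosome 8, and a chi-square of the counts of each library against an even split, which covers counting error only, was 15.1 in sum (9 degrees of freedom, p = 0.0892). In single libraries the unadjusted p of this chi-square was 0.0296 for Medium 5 and 0.0231 for Medium 8, both with more counts on chromosome 8. Because the mature RNA is the same, the values of these loci are not independent measurements, and how reads with several places in the genome were assigned is not given in the sources used here. Reads of miR-23a and 23b, or of miR-27a and 27b, that end before the bases that differ are uncertain in the same way.

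**Figure D2:**
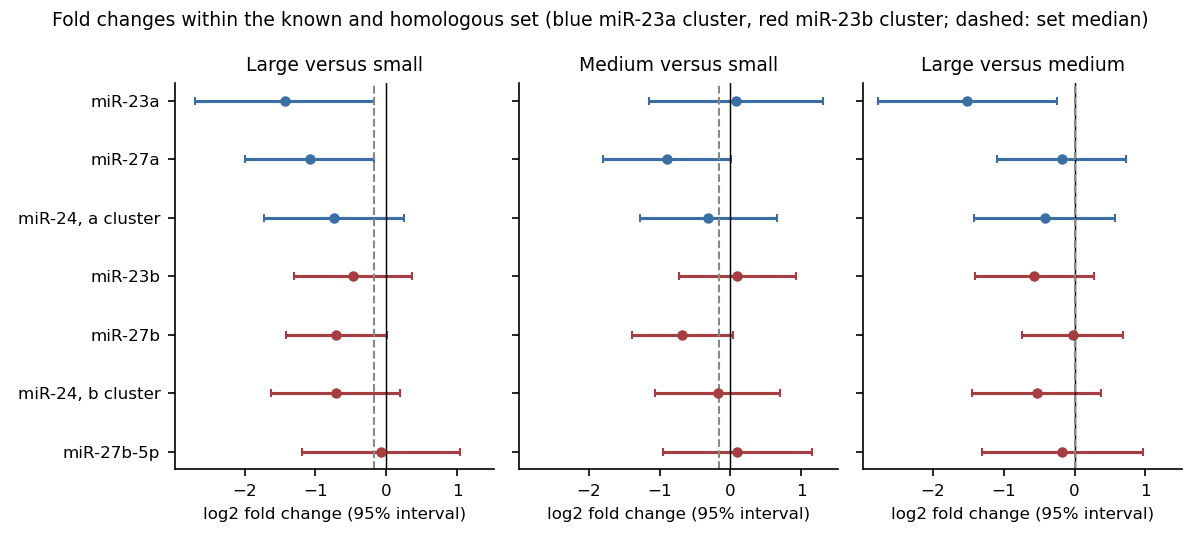
Log2 fold changes (horizontal axes) with 95% intervals of the 5 members and 2 partner loci in the 3 comparisons, from edgeR's quasi-likelihood fit, with the median of the 249 loci as a dashed line. From small to large follicles all 7 points lie below 0, and only the intervals of miR-23a (−2.70 to −0.17) and miR-27a (upper end −0.17) leave 0 out before adjustment.

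From small to medium follicles, 0 of the 5 members passed the same test, where 0% of the set did. No unadjusted p of a member was under 0.05, against 44 of the 249 loci, and the edgeR exact test and DESeq2 each called 0 of the members, and 16 and 28 of the 249. From medium to large follicles, 0 of the 5 passed, where 10.4% of the set did. Here miR-23a alone had an unadjusted p under 0.05, against 80 of the 249 loci. DESeq2 called it among 63 of the 249, and the exact test of edgeR called 0 of the members and 55 of the 249.

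The number of called members depended on the scale. The set's share of all counts, given above, was lower in larger follicles, and scales that use loci outside the set include that difference in each member's value. Against the total of all deposited loci, 5 of 5 members were called lower from small to large follicles by edgeR's quasi-likelihood test, as they were with TMM over the known, homologous and predicted loci and with TMM over all deposited loci. The set's median log2 fold change was then −3.06, −3.60 and −4.71, and 192, 218 and 232 of the 249 loci were called. With the total of all loci, the log2 fold change was −3.98 for miR-27a, −3.80 for miR-23a, −3.69 for miR-27b, −3.52 for miR-24 and −3.16 for miR-23b. The value of miR-27a was then larger in size than that of miR-23a, as it was with the other 2 of these scalings. Per 1000000 of all deposited counts, miR-27b had 23602, 6930 and 22834 in Small 1, 2 and 4, then 2410, 1907 and 5351 in Medium 5, 6 and 8, and 832, 689 and 2611 in Large 10, 11 and 12. On that scale no large pool reached a small one. The same held for the whole set, at 14.1% to 26.9% of all counts in small and 1.43% to 5.65% in large pools. How many of the 249 loci were without overlap on that scale was not counted.

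**Figure D3:**
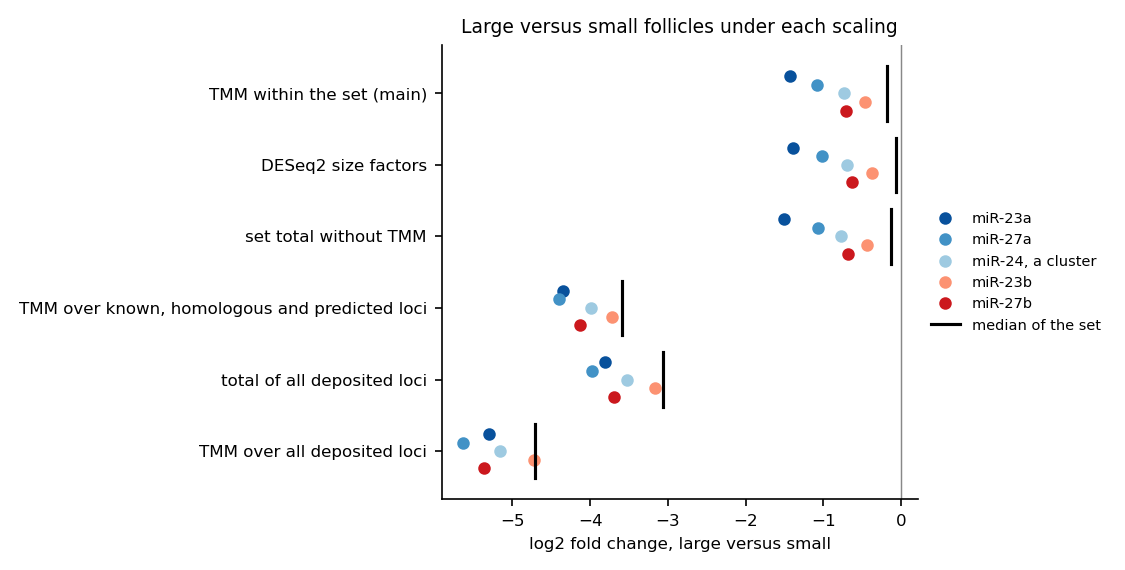
Log2 fold changes of the 5 members from small to large follicles (horizontal axis) under 6 scalings, with the median of the 249 loci as a black line. The members lie at −1.43 to −0.47 with TMM within the set, and the 3 scalings that use loci outside the set move members and median together to between −5.63 and −3.06.

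Across libraries, the correlation was higher within each paralog pair than within either cluster, a difference that was not tested. Over the 9 samples, Pearson's r of log2 normalized counts was 0.92 between miR-27a and 27b, 0.80 between miR-23a and 23b, and 0.92 between both miR-24 loci. Within the chromosome 7 cluster it was 0.32 between miR-23a and 27a, 0.55 between miR-23a and miR-24, and 0.55 between miR-27a and miR-24. Within the chromosome 8 cluster it was −0.15 between miR-23b and 27b, 0.03 between miR-23b and miR-24, and 0.55 between miR-27b and miR-24. Both arms of the miR-27b hairpin had an r of −0.67. These correlations are a description of 9 libraries that share their scaling, and paralogs may also share reads. The value of the miR-24 pair adds nothing to the comparison, because both loci have the same mature RNA.

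The libraries behind this could be named. Small 2 and Medium 6 were the highest libraries for both miR-23 loci, at 1.07 and 1.25 above the mean for miR-23a and 0.74 and 0.77 above it for miR-23b (log2). The same libraries lay below the mean for both miR-27 loci, at −0.23 and −0.58 for miR-27a and −0.14 and −0.19 for miR-27b. Small 1 was the reverse for the chromosome 8 cluster, at 0.87 for miR-27b and −0.20 for miR-23b. Large 10 and Large 11 parted the miR-23 pair, at −2.27 and −1.57 for miR-23a but −0.52 and −0.42 for miR-23b.

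**Figure D4:**
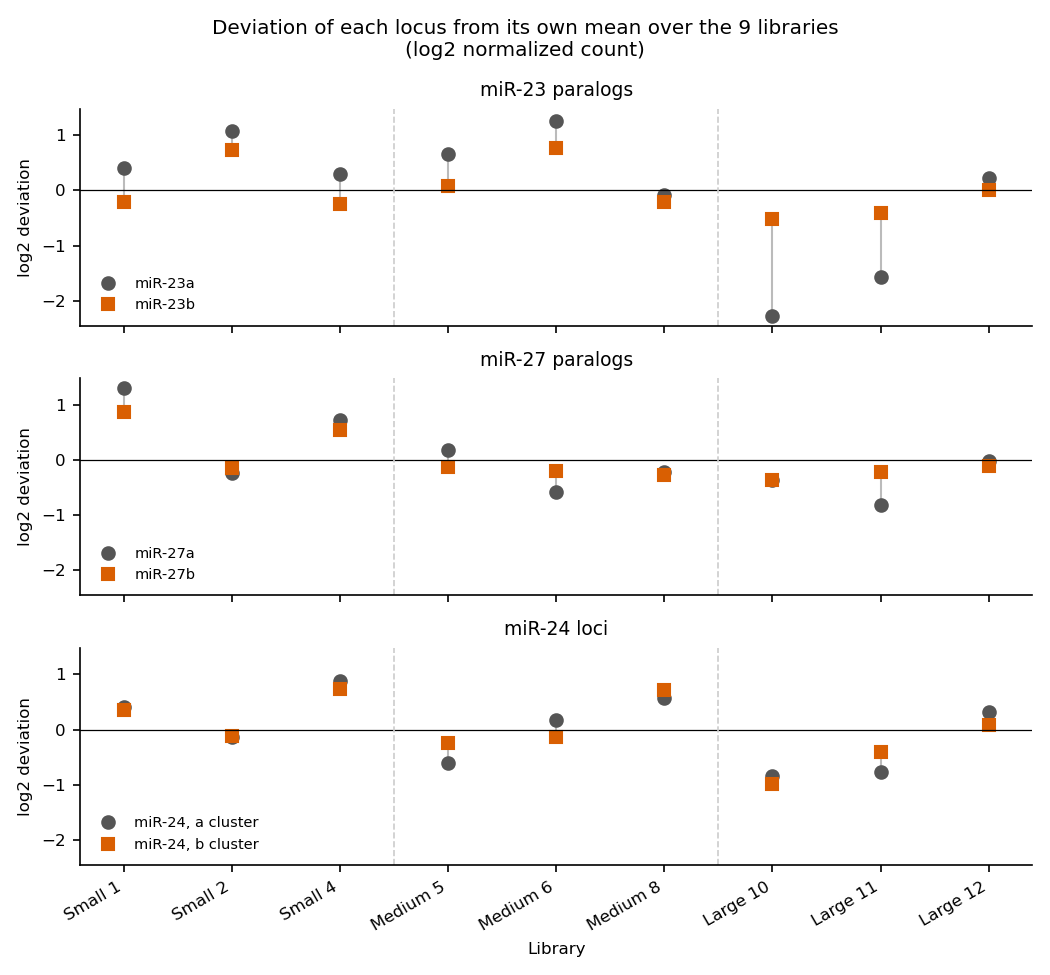
Deviation of each locus from its own mean of log2 normalized counts (vertical axis) in each of the 9 libraries, with the paralogs of a family in 1 panel and a grey line between them. Paralogs lie close together in most libraries, and the widest gaps are those of the miR-23 pair in Large 10 (−2.27 and −0.52) and Large 11 (−1.57 and −0.42).

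A ratio of 2 loci in the same library needs no scaling between libraries, and 8 such ratios were compared with follicle size, ranked from small to large, in an exact permutation test over the 1680 arrangements of the 9 libraries. The ratio of miR-23a to miR-23b counts was 0.891, 0.732 and 0.850 in Small 1, 2 and 4, and 0.870, 0.818 and 0.642 in Medium 5, 6 and 8. It was 0.174, 0.262 and 0.677 in Large 10, 11 and 12. All 3 large pools were thus below all small pools, and Large 12 lay within the medium ones. The mean was 0.825 ± 0.082, 0.777 ± 0.120 and 0.371 ± 0.269 in small, medium and large pools. The trend had an r of −0.71 over log2 ratios (two-sided exact permutation p = 0.0214), and it did not pass after adjustment over the 8 ratios (adjusted p = 0.171). Between large and small follicles alone the exact permutation p was 0.1, the smallest that 3 against 3 can give.

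None of the other 7 ratios passed either, with adjusted exact permutation p-values from 0.819 to 0.825. The ratio of miR-27b to miR-27a was from 66.8 to 136 over the 9 libraries, with means of 80.4 ± 14.5, 91.9 ± 22.9 and 103 ± 28.1 in small, medium and large follicles. The ratio of both miR-24 loci stayed between 0.735 and 1.18. The highest ratio of the 9 libraries was 1.60-fold the lowest for the miR-24 pair, 2.03-fold for the miR-27 pair and 5.13-fold for the miR-23 pair. For the 4 ratios within a cluster it was from 3.07-fold to 13.4-fold. The widest of these, miR-23a to miR-27a, ran from 0.689 in Large 10 to 9.20 in Medium 6. The ratio of miR-27b to miR-23b ran from 10.4 in Medium 6 to 42.8 in Small 1, a 4.10-fold range. That of miR-27b to its opposite arm ran from 579 in Small 2 to 2958 in Small 1. In these data the libraries of 1 size, Small 1 and Small 2, stood at or near opposite ends of the last 2 ratios.

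**Figure D5:**
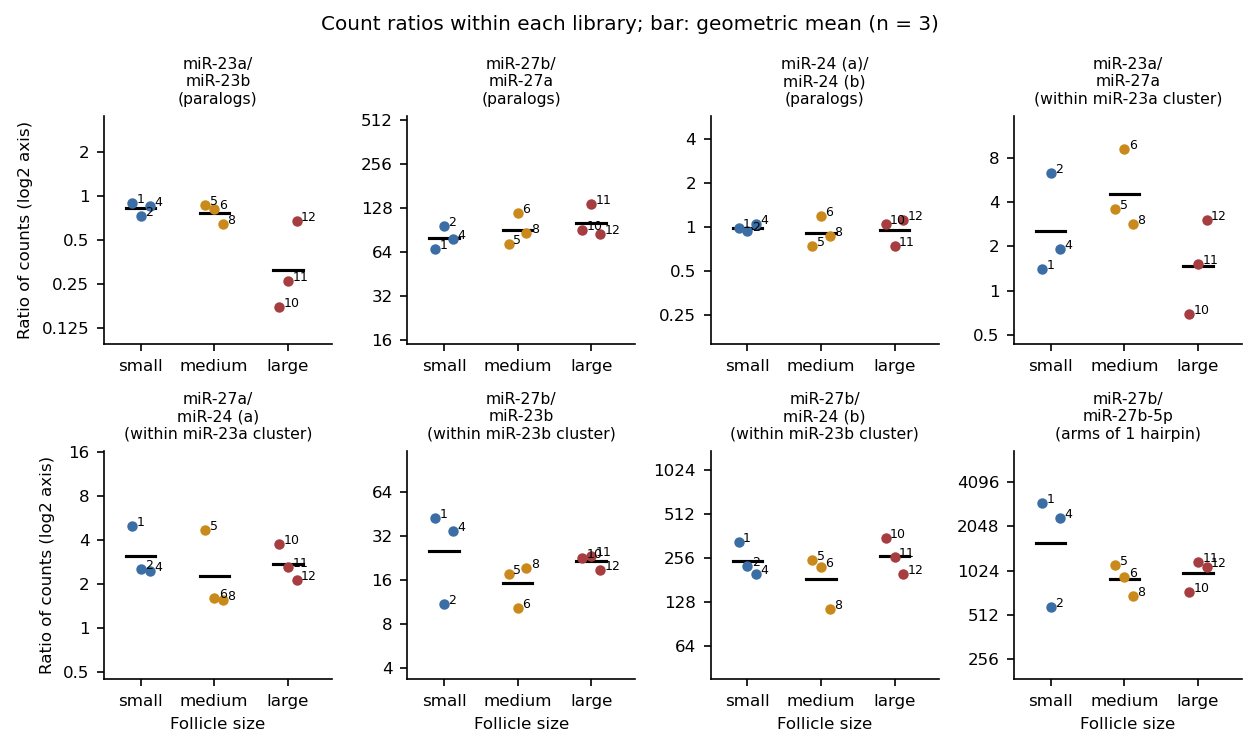
Ratios of counts within each library (vertical axes, log2 scale, each spanning the same number of doublings) for 3 paralog pairs, 4 pairs within a cluster and the arms of the miR-27b hairpin, with the geometric mean of each size as a bar. In the miR-23a to miR-23b panel, Large 10 (0.174) and Large 11 (0.262) lie below the other 7 libraries, which are between 0.642 and 0.891.

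By the rule for loci with a like pattern, those closest to miR-27b over the 9 samples were bta-miR-199a-3p on chromosome 16 (40491615–40491636, r = 0.88), eca-miR-199b-3p on chromosome 11 (98867681–98867702, r = 0.87) and bta-miR-199a-3p on chromosome 7 (16508930–16508950, r = 0.86). Copies of miR-199 have near-identical mature RNAs, so that these loci may share reads. The chromosome 16 locus had 844, 485 and 729 normalized counts in Small 1, 2 and 4 and from 201 to 475 in the medium and large pools. Here too Small 2 was the lowest small pool.

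Closest to miR-23a were bta-miR-2285k on chromosome 26 (29429690–29429711, r = 0.94), bta-miR-107 on chromosome 26 (11288008–11288025, r = 0.93) and bta-miR-103 on chromosome 13 (51742433–51742450, r = 0.92). The miR-107 locus, whose miRNA is a near relative of miR-103, had 586 and 1513 normalized counts in Large 10 and Large 11 and 5529 in Large 12, against 7443 to 9168 in small pools. As for miR-23a, Large 12 was nearer to the medium pools (4908 to 6315) than to the other large ones. The miR-2285k locus had 0 counts in Large 10 and Large 11, where 3 counts would be 16.7 and 21.3 normalized counts. The miR-103 and miR-107 loci were 18 bases long and that of miR-23a 17, and 6 of the 249 loci were of at most 18 bases, with a median of 22. The part of locus length in the likeness was not tested.

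By summed count, to which the small pools gave the most, miR-27b stood between miR-10b, a homeobox-cluster miRNA with 967617 counts, and miR-22-3p with 718534, followed by miR-423-5p with 558528 and miR-148a with 457075. By library, miR-22-3p was above miR-27b in 6 of 9, all of them medium or large pools, where it ranked 1. Its means were 52164 ± 8064, 94803 ± 33928 and 95312 ± 20347 normalized counts in small, medium and large pools. The log2 fold changes from small to large follicles were −0.94 for miR-10b, 0.87 for miR-22-3p, −1.20 for miR-423-5p and −1.50 for miR-148a. Of these neighbours, miR-10b and miR-148a passed the edgeR quasi-likelihood test (FDR 0.0269 and 0.00977). The others did not (FDR 0.0621 for miR-22-3p and 0.137 for miR-423-5p).

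Other miRNAs known from vessel growth formed a list of 22 names, which matched 24 loci of the set. Relative to the set, as for all changes given here, 3 of the 24 were called higher and 11 lower, in large over small follicles, where 17.7% and 24.5% of the set were, and the median log2 fold change was −0.72. Among them, miR-19a and miR-19b of the miR-17-92 cluster, which is known for promoting proliferation, fell by 3.86 and 2.66 on the log2 scale (edgeR FDR 0.000598 and 0.00100). The chromosome 12 locus of miR-92a, in the same cluster, had a log2 fold change of 0.66 (edgeR quasi-likelihood FDR 0.182). This miRNA was the most abundant of the list. The list's summed level was 115917 ± 29135, 92205 ± 23833 and 121156 ± 42047 in small, medium and large pools. Higher levels were called for miR-132, which rose by 4.10, and miR-424-3p, which rose by 2.80 (edgeR FDR 0.00659 and 0.000598). Of miR-132, the large mean was 878 ± 1044, so that its libraries differed widely. From medium to large follicles, 3 of the 24 were called higher and 3 lower, where 5.62% and 4.82% of the set were. The endothelial miR-126-5p, also on this list, was 161 ± 70.5 in small pools and 343 ± 135 in large ones, from 56.8 to 120 in the medium pools, and was called from medium to large follicles alone.

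Markers of cell types were read in the same libraries. The gonadal miR-202 loci, which mark the ovary here, were present in all 9 and summed to 18462 ± 880, 20088 ± 5700 and 19148 ± 13103 in small, medium and large follicles, with 0 of 2 called from small to large follicles, where 42.2% of the set were. Of the blood cell list, 4 of 5 names were in the set (all but miR-223), none of these was at 0 in a library, and 3 of 4 were called higher from small to large follicles, where 17.7% of the set were. Its summed level was 814, 2492 and 490 in Small 1, 2 and 4, from 1534 to 2932 in medium pools, and 7144, 10529 and 15499 in Large 10, 11 and 12, most of it from miR-486, an erythroid miRNA. All 3 large pools were thus above every small and medium pool.

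Of the mesenchymal list, which stands for theca and stroma, 0 of 8 loci were called higher and 4 lower from small to large follicles, where 17.7% and 24.5% of the set were. Its summed level was 24954, 7385 and 22943 in Small 1, 2 and 4, from 3324 to 9068 in medium pools and from 5399 to 11512 in large pools, with miR-143 the most abundant. Small 1 and Small 4 were thus high and Small 2 was not, as for miR-27a and miR-27b. Of the epithelial list, 1 of 6 loci was called higher and 1 lower against the same shares of the set, and the summed level was 916 ± 291, 1539 ± 806 and 1255 ± 303 in small, medium and large pools. The part of any of these cell types in the levels of the miR-23, 24 and 27 loci was not tested.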

How the data were processed

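Small RNA libraries from EVs of 9 pools of follicular fluid were compared, 3 per follicle size, by the labels' groups. The authors removed adapters, mapped reads with BWA 0.7.5a to UMD3.1 (per the submitters' processing notes), merged them into loci, and deposited raw counts per locus that were not normalized. How reads with several places were assigned is not given in the sources used here. Fluid came from 3 collections, each of which gave all 3 sizes, but which pools share a collection is not given either, so that no term for collection was fitted and differences between collections stay in the spread between pools.

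Known and homologous loci were named by the study, which kept a locus whose mean count reached 100 in at least 1 size. The 5 members reached it in 3 sizes, except miR-24 in 2. In R 4.3.3, edgeR 4.0.16 (limma 3.58.1) scaled their counts by TMM within the set and fitted the 3 sizes to 9 samples, with no filter on low counts. Each pair of sizes was tested by the two-sided quasi-likelihood test, with Benjamini-Hochberg adjustment over 249 loci and calls at an FDR under 0.05. The common dispersion was 0.165. Ratios and exact tests used scipy 1.17.1, pandas 2.3.3 and numpy 2.4.6 under Python 3.11.15, and matplotlib 3.10.9 made the plots. The procedure was tested on simulated data. Alternatives were the edgeR exact test, DESeq2 1.42.0, other scalings, filterByExpr, fits of 2 sizes, summed paralogs, an FDR of 0.1 and leaving out each library.

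Totals of 8941598 to 14664460 counts mean that a count of 0 allows a share of up to 2.05e-05% to 3.36e-05% (3 counts), for counting error only. The members and lists were chosen with earlier results of these data known. Named loci are the members, their partners, loci within 1000 bases with at least 100 counts, the 5 most abundant of the set, the 3 most like miR-27b and miR-23a by Pearson's r (pseudocount 0.5), and from each list up to 4 called loci without overlap.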

Additional observations from a re-analysis of the deposited data

How the results depend on the processing

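No paired analysis was possible because the sources used here do not say which pools came from the same of the 3 collections. Each collection gave all sizes, and the library numbers, which differ in every pool, do not show it. In large versus small follicles, all 58 member values under the other settings and all 45 with 1 library left out were negative, and 21 and 4 of them crossed the threshold. Called members there were 2 with DESeq2 (125 of all 249 loci), the edgeR exact test (116) or an FDR under 0.1 (125), 1 with set totals, with (109) or without (108) the members and partners, and 5 with each of the 3 scalings beyond the set (192 to 232). In medium versus small follicles they were 3 with TMM over all deposited loci (109 of 249) and 2 with TMM over known, homologous and predicted loci (101) or the total of all loci (59). In large versus medium follicles it was 1 with DESeq2 (63 of 249) or an FDR under 0.1 (65). With 1 library left out, called members ran from 0 to 2 in large versus small follicles, where 63 to 105 of the 249 loci were called. The 2 came without Small 2 (91 of 249) or without Large 12 (105). In large versus medium follicles they ran from 0 to 1, where 0 to 24 of the 249 were called (1 member without Large 12, with 21 of 249). In medium versus small follicles 0 members were called, where 0 to 13 of the 249 were (13 without Large 12).

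In medium versus small follicles, scaling by TMM over all deposited loci, TMM over the 704 known, homologous and predicted loci, and the total of all loci turned miR-23a to −2.96, −1.99 and −1.76, miR-23b to −2.73, −1.86 and −1.62, and miR-27b-5p to −2.18, −1.55 and −1.31. These scalings differ from the main one in that counts of loci outside the set enter the scaling. DESeq2, or its size factors, turned miR-27b-5p in large versus small follicles to 0.0283 and 0.0282. With 1 library left out, values that changed sign ran, in medium versus small follicles, from −0.29 to 0.36 (miR-23a), −0.23 to 0.49 (miR-23b), −0.61 to 0.071 (miR-24, chromosome 7), −0.56 to 0.17 (eca-miR-24) and −0.13 to 0.67 (miR-27b-5p). In large versus medium follicles they ran from −0.40 to 0.028 (miR-27a), −0.091 to 0.037 (miR-27b) and −0.30 to 0.0036 (miR-27b-5p), and in large versus small follicles from −0.30 to 0.50 (miR-27b-5p).

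Of 88 trend values of the 8 ratios under other settings, 0 passed after adjustment and 5 changed sign. The trend of the miR-24 ratio was exactly 0 by Spearman's correlation. Leaving out 1 library gave r from −0.83 to −0.63 for miR-23a/miR-23b, −0.30 to 0.18 for the miR-24 loci, −0.30 to 0.14 for miR-27a/miR-24, −0.47 to 0.14 for miR-27b/miR-23b and −0.15 to 0.33 for miR-27b/miR-24. With all deposited loci as the denominator, the members' share was 1.92%, 0.363% and 0.150% in small, medium and large follicles, and with loci of 18 to 30 bases 3.78%, 1.03% and 0.541%. Depth limits miR-23a, miR-27a, both miR-24 loci and miR-27b-5p most, with under 100 counts each in Large 10 and Large 11.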
